A study of Sus scrofa with 4 samples.

Results

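The 9 genes described here carry glycerol or water across the cell membrane or lead carbon into and out of glycerol-3-phosphate, the backbone on which a cell builds triglyceride. They are the channels AQP1, AQP3 and AQP7, the glycerol kinase gene GK, the glycerol-3-phosphate dehydrogenase genes GPD1, GPD1L and GPD2, and the phosphoenolpyruvate carboxykinase (PEPCK) genes PCK1 and PCK2. They were taken by symbol among the protein-coding genes, and all 9 were found among the 16192 mRNAs that had a value. Subcutaneous preadipocytes of male Chinese Erhualian piglets aged 5 days were grown to confluence, which is D0. They were then given dexamethasone, IBMX and insulin until D2, insulin until D4, and growth medium until D8. At D0, D2, D4 and D8, RNA of 3 piglets was pooled in equal amounts and made into 1 rRNA-depleted library, so that there were 4 libraries and no replicates.

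Fat cells release glycerol when triglyceride is broken down, and it leaves the cell through aquaglyceroporins, a branch of the aquaporin family that passes glycerol as well as water. Glycerol-3-phosphate for new triglyceride can be made from glucose by way of dihydroxyacetone phosphate, from glycerol by glycerol kinase, or from pyruvate and amino acids through PEPCK, a route called glyceroneogenesis. White fat is known for low glycerol kinase activity, and its cytosolic PEPCK is known for its part in glyceroneogenesis rather than in the release of glucose.

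Levels are FPKM, in which the fragments of a gene are scaled by its length and by the library total, so that levels of different genes can be set side by side. The library totals behind them were 54128151 to 75387428. What they count is called reads here, but FPKM counts fragments, which can be pairs of reads. Read numbers of each gene were recovered from its FPKM, and the 95% intervals given here come from those reads, cover counting error only, and do not include the difference between cultures, animals or library preparations. A difference between stages is therefore also a difference between 2 libraries, the 2 cannot be told apart, and stages could not be tested. Of 12 adipocyte markers, 9 were reliably expressed, which means that 3 or 4 of the libraries reached 1 FPKM. All 9 were at least 2-fold higher at D2, D4 and D8 than at D0, beside 6.67%, 10.4% and 3.6% of all reliably expressed mRNAs. Of the other adipocyte markers, PLIN4 was at 0.0941, 0.213, 2.65 and 4.76 FPKM at D0, D2, D4 and D8. CIDEC was at 0.271, 0.780, 5.01 and 54.6 FPKM. LEP went the other way up to D4, at 0.291, 0.156, 0.0269 and 0.314 FPKM. The signal recognition particle RNA took 12.4 to 17.1% of the reads of a library, more at D2 and D8 than at D0 and D4. Skeletal muscle markers stayed at or below 0.0764 FPKM, and 8 macrophage and leukocyte markers summed to 2.55 to 5.49 FPKM. In bulk RNA, fewer cells of a type and less RNA per cell cannot be told apart.

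The genes did not move as 1 group. AQP3, GK, GPD1 and PCK1 were low at D0 and several fold higher at D2 and D4, PCK2 was lower at D2 and D4, GPD1L was highest at D8, and GPD2 was within about 2-fold in all 4 libraries. By D8, AQP3 and GPD1 were still far above D0, while PCK1 was back below its D0 level. Of the 9 genes, 7 were reliably expressed. AQP1 and AQP7 were below 1 FPKM in every library and are given by their values only, and AQP3 and GPD1 were below 1 at D0 and passed through the later libraries.

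**Figure D1:**
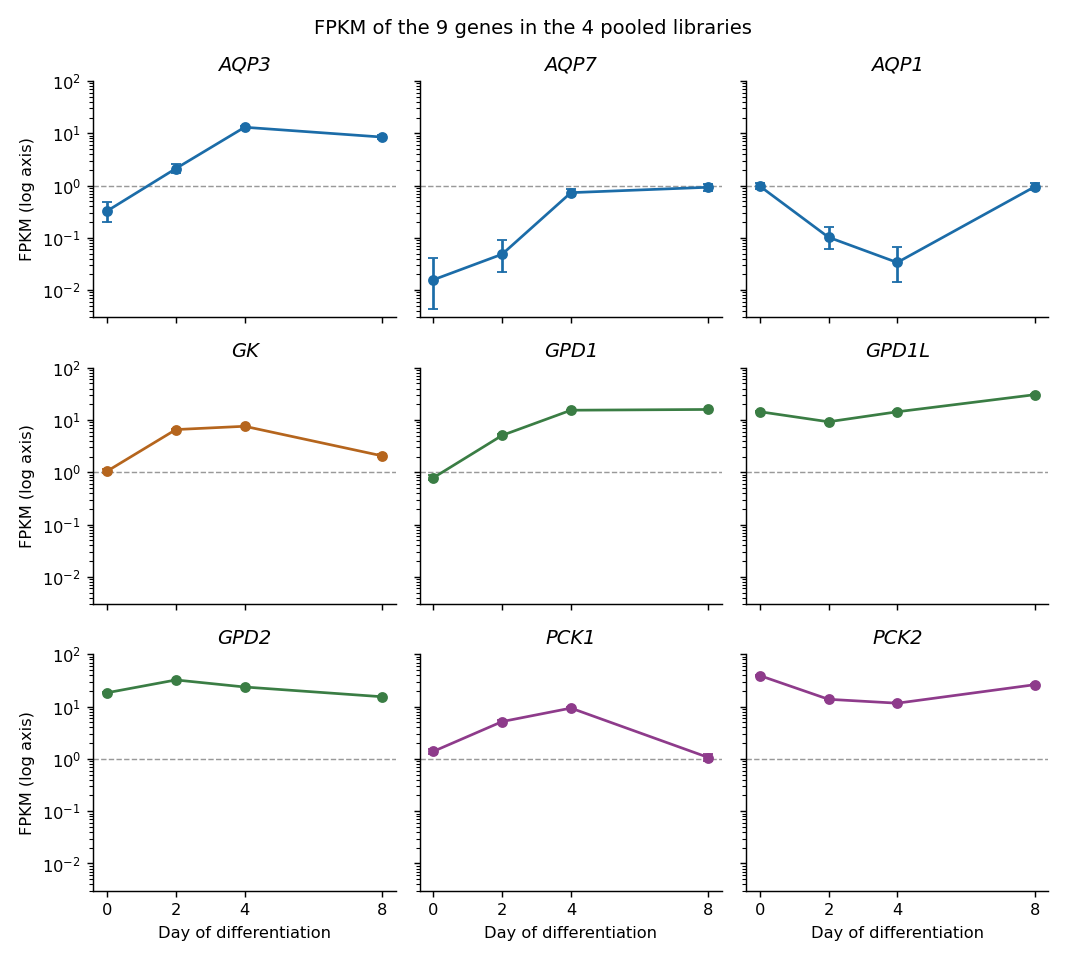
FPKM (log axis) of each of the 9 genes against the day of differentiation, 1 pooled library per point, with 95% counting intervals as bars where they are wider than the point and a dashed line at 1 FPKM. AQP3, GK, GPD1 and PCK1 climb from about 1 FPKM or less at D0, PCK1 returns to 1.06 at D8, and AQP1 and AQP7 lie under the dashed line throughout.

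A gene was counted as higher or lower when its ratio between 2 libraries, on log2(FPKM + 0.01), was at least 2-fold, without a test. In D2 vs D0, 4 of the 7 reliably expressed genes were higher (AQP3, GK, GPD1 and PCK1), beside 6.67% of all 9191 reliably expressed mRNAs, and PCK2 was lower, beside 10.1%. In D4 vs D2, AQP3 and GPD1 were higher, beside 4.24% of all, and 0 were lower, beside 0.838%. In D8 vs D4, GPD1L and PCK2 were higher, beside 4.43%, and GK and PCK1 were lower, beside 10.1%. Set directly against D0, the 4 genes raised at D2 were also the ones at least 2-fold higher at D4, beside 10.4% of all, and PCK2 was the one that was lower, beside 8.81%. At D8, AQP3, GPD1 and GPD1L were higher than at D0, beside 3.6% of all, and 0 were lower, beside 3.68%. These 5 comparisons share libraries and are not independent of one another, and the filter keeps genes that are low in 1 library only. With 1 FPKM required in all 4 libraries, AQP3 and GPD1 left these counts, and with no filter AQP1 joined the lower genes in D2 vs D0, D4 vs D2 and D4 vs D0 and the higher ones in D8 vs D4, and AQP7 joined the higher genes in every comparison but D8 vs D4.

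**Figure D2:**
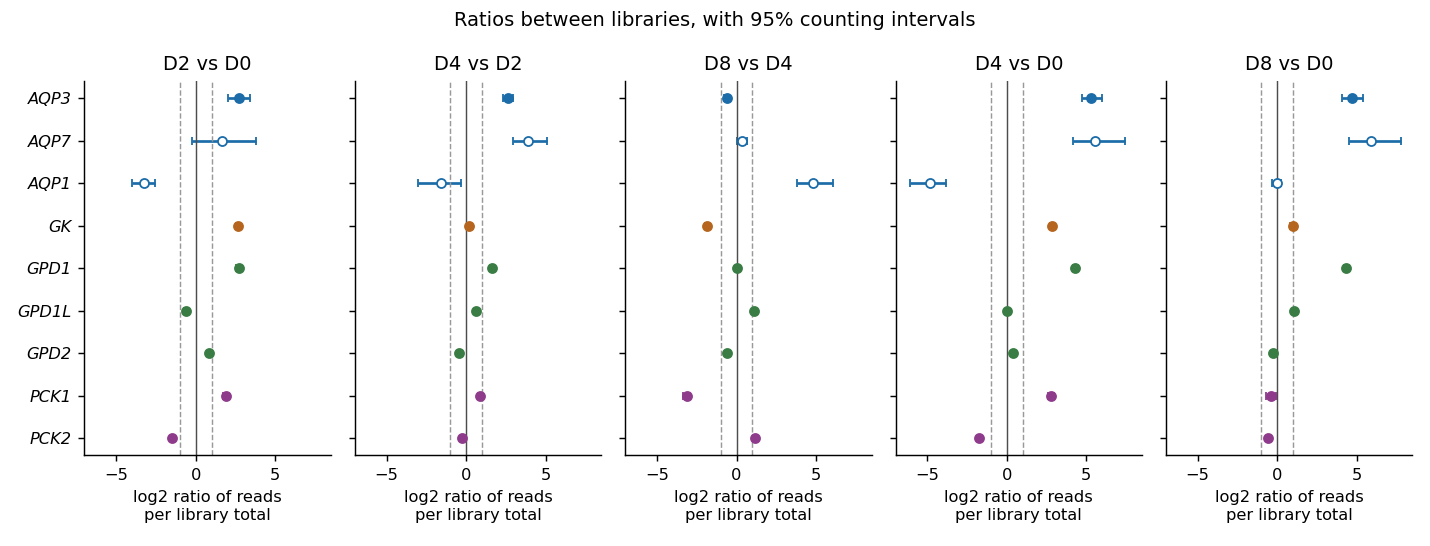
Log2 ratio of reads per library total for the 9 genes in the 5 comparisons, with 95% counting intervals as bars, a solid line at no difference and dashed lines at a 2-fold difference. Open circles are AQP1 and AQP7, which did not pass the filter on low values, and the widest intervals belong to the aquaporins, which had the fewest reads.

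AQP3, an aquaglyceroporin, had the largest ratios to D0 at D4 and at D8 among the 7 reliably expressed genes. The gene lies on chromosome 10 at chr10:33045374-33050285 on the plus strand of the Sscrofa11.1 assembly. Its level was 0.327, 2.12, 13.1 and 8.47 FPKM at D0, D2, D4 and D8, from 22, 104, 866 and 409 reads. The level therefore rose at each step up to D4 and was lower again at D8, and each step was larger than counting error. It was 6.48-fold higher at D2 than at D0 (95% interval 4.06 to 10.8) and 6.16-fold higher at D4 than at D2 (5.02 to 7.62). From D4 to D8 it was 1.54-fold lower (1.37 to 1.74), under the 2-fold threshold. The D8 level stayed 25.9-fold above D0 (16.9 to 41.8). Among the 16192 mRNAs, AQP3 went from rank 11072 at D0 to rank 3425 at D4, where it stood at 1.53 times the median of the reliably expressed mRNAs.

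AQP3 is also a channel of epithelia. Of 6 epithelial markers, 5 were in the files, and their summed FPKM was 49.6, 117, 197 and 302 at D0, D2, D4 and D8. Nearly all of that sum was keratin 5 (KRT5), at 44.4, 107, 180 and 275 FPKM, and the rest mostly KRT8, at 4.46, 8.25, 15.8 and 25.1. The epithelial adhesion genes stayed under 1 FPKM, EPCAM between 0.504 and 0.904 and CDH1 at 0.174, 0.494, 0.835 and 0.407. None of the 5 was at 0 in any library. KRT5 and KRT8 were highest at D8, and CDH1 and AQP3 at D4. The part of these markers in the AQP3 levels was not tested.

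AQP7, the aquaglyceroporin best known as the glycerol exit channel of fat cells, lies 48460 bases further along the same strand, at chr10:33098746-33130245. Its level was 0.0158, 0.0487, 0.732 and 0.928 FPKM at D0, D2, D4 and D8, from 4, 9, 183 and 169 reads. It was thus barely detected in the first 2 libraries and near 1 FPKM in the last 2. The D4 level was 15.0-fold above D2 (7.75 to 33.4), and D8 was 58.8-fold above D0 (22.6 to 218). D2 and D0 could not be told apart by counting error, with a ratio of 3.08 (0.861 to 13.7), and D8 was 1.27-fold above D4 (1.02 to 1.57). Both glycerol channels were therefore higher in the later libraries. The last 3786 bases of AQP7 are shared with NFX1 on the opposite strand, a gene at 6.56 to 10.1 FPKM. Libraries were directional, but the sources used here do not state whether reads were counted by strand, so that AQP7 reads could include some from NFX1. NFX1 itself was 7.54, 9.14, 10.1 and 6.56 FPKM, lowest at D8 where AQP7 was highest.

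AQP1, a water channel that is abundant in endothelium and red blood cells and is not counted among the aquaglyceroporins, had the opposite course at the middle stages. It lies at chr18:42063482-42076741 on the minus strand. Its level was 0.977, 0.103, 0.0337 and 0.950 FPKM at D0, D2, D4 and D8, from 235, 18, 8 and 164 reads. Low at D2 and D4, it did not differ beyond counting error between D0 and D8, with a ratio of 1.03 (0.839 to 1.26). D4 was 29.0-fold below D0 (14.5 to 67.9), and D8 was 28.2-fold above D4 (14.0 to 66.3). The summed FPKM of 7 endothelial markers was 2.81, 1.20, 1.89 and 2.02, nearly all of it PECAM1 at 2.56, 1.14, 1.70 and 1.87. The defining endothelial genes CDH5 and VWF were at or near 0. CDH5 was at 0 except for 0.0450 FPKM at D4, from 13 reads. VWF was at 0 except for 0.0137 FPKM at D0, from 9 reads. TEK had 28, 2, 0 and 4 reads and EMCN 13, 5, 0 and 0, both most at D0 and 0 at D4, where AQP1 was also lowest. Others went differently: CLDN5 had 6, 0, 9 and 6 reads and, like CDH5, had most at D4. KDR had 7, 6, 7 and 6 reads. The part of these markers in the AQP1 levels was not tested. For red blood cells, HBB was at 0 in 3 libraries and at 0.271 FPKM at D4, the library where AQP1 was lowest.

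Set side by side per length, AQP1 made up 74.0% of the summed FPKM of the 3 channels at D0 (65.2 to 81.3), when AQP3 had 24.8% and AQP7 1.19%. At D2 and D4, AQP3 had 93.3% and 94.5% of it, and at D8 it had 81.9%, with AQP1 at 9.18% and AQP7 at 8.97%. AQP7 was never the leading channel and its share was highest at D8. Of 9 other aquaporins, 5 were in the files and 1 was reliably expressed. That was AQP11, an intracellular aquaporin, at 0.499, 1.67, 2.34 and 1.04 FPKM. Another aquaglyceroporin, AQP10, had 16, 0, 0 and 1 reads.

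GK encodes glycerol kinase, which joins a phosphate to free glycerol and so lets the cell use glycerol again. The gene lies at X:26470422-26558892 on the plus strand. Its level was 1.05, 6.56, 7.58 and 2.06 FPKM at D0, D2, D4 and D8, from 718, 3268, 5108 and 1010 reads. The 2 middle libraries were high and the 2 outer ones low. D2 was 6.24-fold above D0 (5.75 to 6.77) and D4 only 1.16-fold above D2 (1.11 to 1.21). D8 was 3.68-fold below D4 (3.44 to 3.94) and 1.96-fold above D0 (1.78 to 2.16), just short of the 2-fold threshold, which it passed under median-ratio scaling of the libraries. Even at D4, GK was at 0.890 times the median level of reliably expressed mRNAs.

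Around GK, 3 of 4 related genes were in the files and all 3 were reliably expressed. GK5, a second kinase of the family, was at 2.84, 2.42, 4.14 and 3.21 FPKM and was below 2-fold in every comparison with D0. FGGY, a carbohydrate kinase of the same family, was at 1.55, 3.13, 3.73 and 2.10 FPKM, at least 2-fold higher than D0 at D2 and D4. PGP, a phosphatase that can take the phosphate off glycerol-3-phosphate again, stayed between 14.8 and 16.8 FPKM. GK was below GK5 and FGGY at D0 and above both at D2 and D4.

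GPD1, the cytosolic dehydrogenase that turns dihydroxyacetone phosphate into glycerol-3-phosphate, lies at chr5:16008179-16021676 on the plus strand. Its level was 0.787, 5.08, 15.4 and 15.9 FPKM at D0, D2, D4 and D8, from 318, 1498, 6128 and 4610 reads. Up to D4 it had an order like that of AQP3, and at D8 it was still at its D4 level, with a ratio of 1.03 (0.994 to 1.07). It was 6.46-fold higher at D2 than at D0 (5.72 to 7.31), 3.03-fold higher at D4 than at D2 (2.86 to 3.20) and 20.2-fold higher at D8 than at D0 (18.0 to 22.7). Its rank among all mRNAs was 9823 at D0 and 2757 at D8.

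GPD1L encodes a cytosolic relative of GPD1 that is also known as a regulator of the cardiac sodium channel, and lies at chr13:18126471-18176669 on the plus strand. Its level was 14.4, 9.24, 14.3 and 30.5 FPKM at D0, D2, D4 and D8, from 4375, 2048, 4300 and 6649 reads. It was lowest at D2 and highest at D8, and D0 and D4 did not differ beyond counting error, with a log2 ratio of -0.01 at D4 against D0 (-0.07 to 0.06). D8 was 2.12-fold above D4 (2.04 to 2.21) and 2.12-fold above D0 (2.04 to 2.20). D2 was 1.56-fold below D0 (1.48 to 1.64).

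GPD2 encodes the mitochondrial dehydrogenase that turns glycerol-3-phosphate back into dihydroxyacetone phosphate and passes its electrons to the respiratory chain. It lies at chr15:63592723-63728636 on the plus strand. Its level was 18.5, 32.5, 23.8 and 15.5 FPKM at D0, D2, D4 and D8, from 9146, 11712, 11609 and 5500 reads. D2 was its highest library and D8 its lowest, 2.10-fold apart, and no comparison made here reached 2-fold. D2 was 1.76-fold above D0 (1.71 to 1.80), and D8 was 1.54-fold below D4 (1.49 to 1.59).

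The makeup of the 3 dehydrogenases therefore differed from library to library, while their summed level was 33.7, 46.8, 53.5 and 61.9 FPKM. GPD2 had 54.9, 69.4, 44.5 and 25.0% of the sum at D0, D2, D4 and D8. GPD1 had 2.34% at D0 (2.10 to 2.61), 10.9% at D2, 28.7% at D4 and 25.7% at D8 (25.1 to 26.4). Of the 2 cytosolic genes alone, GPD1 had 5.18% of the sum at D0, 35.5% at D2, 51.7% at D4 (50.8 to 52.7) and 34.3% at D8 (33.4 to 35.1). GPD1 led GPD1L at D4 only, and its lower share at D8 came with a GPD1 level of 15.9 FPKM, as at D4, and a GPD1L level 2.12-fold higher.

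GPD2 was the one gene of the 9 with circular RNAs, which are closed loops counted by reads across a back-splice junction. The first, between bases 63645207 and 63661287 of chromosome 15, had 19, 6, 3 and 0 junction reads at D0, D2, D4 and D8. The second, between 63700727 and 63712858, had 3 reads at D8 and 0 in the other libraries. The first was thus seen most at D0. A circle needed at least 2 reads to be kept, so that a 0 can stand for a single read. A library where truly 0 were seen still allows up to 3, and one where a single read was dropped allows more. Together they were 0.208% of the GPD2 reads at D0 and 0.0512%, 0.0258% and 0.0545% at D2, D4 and D8. Junction reads are single reads, while the GPD2 reads may be pairs, so that these shares set unlike units against each other. These shares would be smaller by a whole factor if the GPD2 reads, which are the smallest number its FPKM values allow, are a fraction of the true ones. GPD2 mRNA was highest at D2, and the junction reads at D0.

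PCK1 encodes cytosolic PEPCK, which makes phosphoenolpyruvate from oxaloacetate and controls the pace of glyceroneogenesis. The gene lies at chr17:57930507-57936523 on the plus strand. Its level was 1.40, 5.19, 9.39 and 1.06 FPKM at D0, D2, D4 and D8, from 278, 753, 1843 and 152 reads. D4 was highest and D8 lowest, so that the gain of the first 4 days was absent in the last library. D2 was 3.71-fold above D0 (3.23 to 4.28) and D4 was 1.81-fold above D2 (1.66 to 1.97). D8 was 8.83-fold below D4 (7.48 to 10.5), the largest ratio of any of the 7 reliably expressed genes in that comparison, and 1.31-fold below D0 (1.07 to 1.61). Its rank among all mRNAs was 8824, 5654, 4326 and 9174.

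PCK2, which encodes the mitochondrial form of the enzyme, lies at chr7:75187195-75197613 on the minus strand. Its level was 39.4, 13.8, 11.7 and 26.3 FPKM at D0, D2, D4 and D8, from 7148, 1834, 2088 and 3433 reads. It was high where PCK1 was low. D2 was 2.84-fold below D0 (2.70 to 2.99), D4 was 3.38-fold below D0 (3.22 to 3.55), and D8 was 2.26-fold above D4 (2.14 to 2.39). At D8 it was 1.49-fold below D0 (1.44 to 1.56).

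PCK2 was above PCK1 in all 4 libraries. PCK1 had 3.43% of the summed FPKM of both at D0 (3.05 to 3.85), 27.3% at D2 (25.6 to 29.0), 44.6% at D4 (43.1 to 46.2) and 3.88% at D8 (3.32 to 4.54). The intervals of the D0 and D8 shares overlapped. The sum of both was 40.8, 19.0, 21.0 and 27.4 FPKM, so that the PCK1 share was largest in the 2 libraries with the lowest sums.

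**Figure D3:**
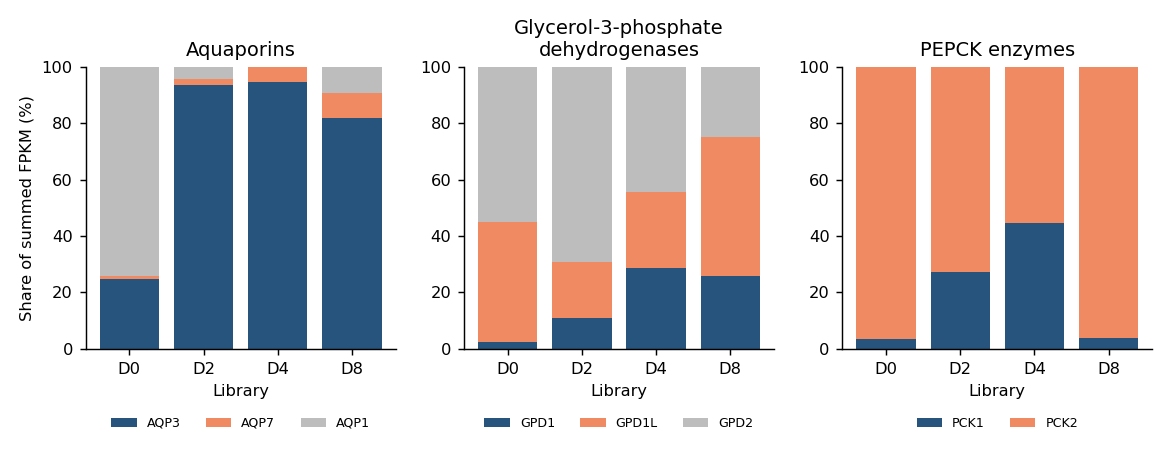
Share of the summed FPKM (%) that each gene had within the 3 aquaporins, the 3 glycerol-3-phosphate dehydrogenases and the 2 PEPCK enzymes in each library. AQP3 fills most of the D2, D4 and D8 bars, GPD1 grows from 2.34% at D0 to 28.7% at D4, and the PCK1 share is 44.6% at D4 but under 4% at D0 and D8.

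Across the 9 genes, 27 pairs of libraries were neighbours in the order of a gene's levels, and 4 of them did not differ beyond counting error. These were D0 and D8 for AQP1, D2 and D0 for AQP7, D8 and D4 for GPD1, and D0 and D4 for GPD1L. The spread between cultures of 1 stage was not measured, so these 27 orders hold for the libraries.

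Genes known to act on PCK1 or PCK2 transcription were read from a list of 15, of which 11 were reliably expressed. In D2 vs D0, 4 of the 11 were higher, beside 6.67% of all reliably expressed mRNAs, and 1 lower, beside 10.1%. In D8 vs D4, 1 was higher, beside 4.43%, and 5 were lower, beside 10.1%. The list's median log2 ratio was 0.44 in D2 vs D0 and -0.62 in D8 vs D4, beside -0.03 and -0.21 for all reliably expressed mRNAs. PPARG, the nuclear receptor that drives fat cell differentiation, was at 2.95, 26.4, 51.9 and 25.8 FPKM. CEBPA, its partner among the transcription factors of fat cells, was at 15.4, 95.3, 162 and 37.1 FPKM. Like PCK1, both were highest at D4, but both were still above D0 at D8. CEBPB, NR3C1 and FOXO1 were also highest at D4, and of these only CEBPB was below its D0 level at D8. Reliably expressed genes of the list with another course were CEBPD, CREB1 and CREM. CEBPD was at 140, 299, 178 and 165 FPKM, highest at D2. CREB1 was highest at D0 and lowest at D8, and CREM was highest at D0 and lowest at D2. RXRA, which pairs with PPARG on DNA, was at 1.41, 2.47, 4.36 and 1.22 FPKM, at D8 below its D0 level as PCK1 was. PPARGC1A, a coactivator of PCK1 in liver, was below the filter at 0.0403, 0.357, 0.355 and 0.0605 FPKM. ATF4, an activator of PCK2 in the amino acid and stress response, was at 211, 233, 141 and 253 FPKM, lowest at D4 as PCK2 was but not lower at D2. ATF3, another gene of that response, was at 9.58, 3.01, 1.87 and 4.33 FPKM, with the same order of libraries as PCK2.

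The steps that lead from pyruvate to dihydroxyacetone phosphate beside PEPCK were read from 10 genes, all of them reliably expressed. In D2 vs D0, 1 was higher and 2 were lower, with a median log2 ratio of -0.16 beside -0.03 for all. In D4 vs D0, 2 were higher and 2 lower (0.16 beside 0.06), and in D8 vs D0, 2 were higher and 0 lower (0.00 beside -0.18). Of all reliably expressed mRNAs, 6.67%, 10.4% and 3.6% were higher in these comparisons, and 10.1%, 8.81% and 3.68% were lower. PC, pyruvate carboxylase, which makes the oxaloacetate that PEPCK uses, was at 2.17, 9.17, 30.4 and 15.4 FPKM, highest at D4 like PCK1 but still well above D0 at D8. MDH1, cytosolic malate dehydrogenase, which can supply oxaloacetate in the cytosol, was at 114, 140, 271 and 251 FPKM. Of the glycolytic genes that the route runs through in reverse, ENO1 was at 551, 477, 583 and 553 FPKM, highest at D4. PGAM1 was at 516, 241, 226 and 456 FPKM, and TPI1 at 823, 398, 420 and 723. GAPDH was at 693, 423, 345 and 692 FPKM, so that PGAM1, TPI1 and GAPDH, like PCK2 and unlike ENO1, were lower at D2 and D4 than at D0 and D8.

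Genes that bring pyruvate into the mitochondrion or spare it from oxidation numbered 10, with 9 reliably expressed. In D2 vs D0 and in D4 vs D0, 2 of the 9 were higher and 1 was lower, and in D8 vs D0, 1 was higher and 0 lower. The list's median log2 ratio was 0.08, 0.52 and 0.43 in these 3 comparisons, beside -0.03, 0.06 and -0.18 for all. Of all reliably expressed mRNAs, 6.67%, 10.4% and 3.6% were higher in the 3 comparisons, and 10.1%, 8.81% and 3.68% were lower. PDK4, a kinase that shuts down pyruvate dehydrogenase, was at 0.153, 1.62, 1.97 and 1.91 FPKM. From the same list, PDK1 was above PDK4 in every library, at 28.9, 19.7, 22.1 and 40.5 FPKM, and was lower at D2 and D4 than at D0. PDK3 was at 1.58, 3.89, 4.10 and 1.64 FPKM. LDHA, lactate dehydrogenase A, was at 519, 187, 197 and 471 FPKM. Beyond triose phosphate, on the way to glucose, FBP1 had 0, 2, 1 and 8 reads. G6PC3, a glucose-6-phosphatase found in most tissues, stayed between 8.26 and 11.7 FPKM.

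Of 14 genes for the steps from glycerol-3-phosphate to triglyceride, 12 were reliably expressed. In D2 vs D0, 1 was higher and 0 lower, and in D4 vs D0, 5 were higher and 1 lower, with a median log2 ratio of 0.73 beside 0.06 for all. In D8 vs D4, 1 was higher and 3 were lower (-0.43 beside -0.21). Of all reliably expressed mRNAs, 6.67%, 10.4% and 4.43% were higher in D2 vs D0, D4 vs D0 and D8 vs D4. Lower were 10.1%, 8.81% and 10.1%. GPAM, the mitochondrial enzyme of the first acylation, was at 1.88, 3.07, 5.55 and 2.69 FPKM, and GPAT4, its counterpart in the endoplasmic reticulum, at 20.0, 30.1, 58.8 and 22.6. DGAT2, which adds the last acyl chain, was at 0.152, 10.1, 57.7 and 47.1 FPKM and, like GPD1 and AQP3, stayed high at D8. The gene lower in D4 vs D0 was AGPAT2, at 14.4, 7.39, 6.60 and 15.2 FPKM, which was also the one higher in D8 vs D4. GPAT3 was at 4.81, 2.48, 6.08 and 5.88 FPKM, lowest at D2.

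Of 7 genes of the lipolysis that releases glycerol, 6 were reliably expressed, LIPE and MGLL among them with a D0 level under 1. In D4 vs D0 all 6 were higher, with a median log2 ratio of 2.85 beside 0.06 for all. In D8 vs D4, 5 were lower and 0 higher (-1.29 beside -0.21). Of all reliably expressed mRNAs, 10.4% were higher in D4 vs D0, and in D8 vs D4, 10.1% were lower and 4.43% higher. PNPLA2, the lipase of the first step, was at 2.70, 8.95, 17.9 and 7.14 FPKM. LIPE, hormone-sensitive lipase, was at 0.808, 7.15, 31.9 and 10.3 FPKM, and PLIN1, the lipid droplet protein that gates both, at 2.28, 36.1, 215 and 90.3. MGLL, which releases the glycerol in the last step, was at 0.917, 1.18, 3.94 and 4.60 FPKM. MGLL was thus low at D2 and held at D8. Its libraries stood in the same order as those of AQP7 and GPD1, but GPD1 was already 6.46-fold above D0 at D2. D2 and D0 of AQP7, and D8 and D4 of GPD1, did not differ beyond counting error. The other 5 genes were highest at D4, as AQP3, GK and PCK1 were.

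**Figure D4:**
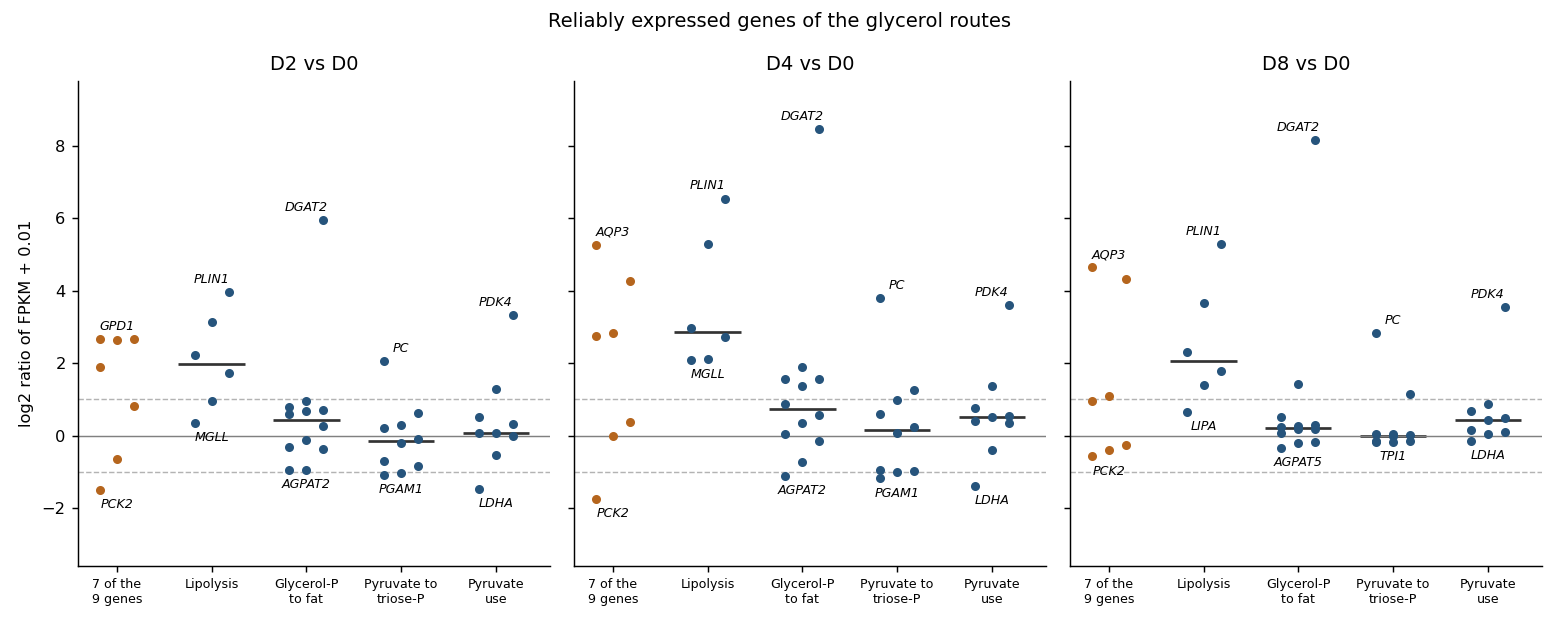
Log2 ratio of FPKM + 0.01 against D0 at D2, D4 and D8 for the 7 reliably expressed genes of the 9 and for the reliably expressed genes of 4 lists: lipolysis, glycerol-3-phosphate to triglyceride, pyruvate to triose phosphate, and pyruvate entry and sparing. Each point is a gene, bars are list medians, dashed lines are 2-fold, and the highest and lowest genes are named. At D4 all 6 lipolysis genes lie above the 2-fold line, while PCK2 and PGAM1 lie below the lower one.

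Each of the 7 reliably expressed genes varied at least 2-fold over the 4 libraries. The mRNAs with the most similar course were found among all 9191 reliably expressed mRNAs, whether or not they varied. The measure was the Euclidean distance between log2(FPKM + 0.01) values over the 4 libraries, each centred on its own mean. With 4 points from shared libraries, such distances are descriptions. Nearest to AQP3 were SELENBP1 (distance 0.360), a selenium-binding protein, and SCD (0.390), the desaturase that makes monounsaturated fatty acids. Nearest to GPD1 were CD36 (0.363), a fatty acid transporter, and CALCRL (0.425), the receptor for adrenomedullin and related peptides. GPD1 was 6th in the list of AQP3, and AQP3 12th in that of GPD1. Nearest to GK were EBF1 (0.232), a transcription factor of preadipocytes and B cells, and TPST2 (0.273), a tyrosine sulfotransferase.

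For PCK1 the nearest genes were further away, LOC100625479 at 0.454 and MMP2, a matrix metalloproteinase, at 0.580, and GK was 65th. MMP2 was at 99.3, 371, 481 and 96.8 FPKM, highest at D4 and lowest at D8 as PCK1 was. For PCK2 they were OSBPL5 (0.114), a lipid transfer protein, and PRKAG2 (0.123), a subunit of the energy sensor AMPK. GPD1L had APLN (0.0333), which encodes the peptide hormone apelin, and PDGFC (0.212), a growth factor, as its nearest genes. APLN was at 4.11, 2.70, 4.09 and 8.65 FPKM. GPD2 had PMAIP1 (0.0841), which promotes cell death, and C16H5orf49 (0.0848). None of the named neighbours of PCK2, GPD1L or GPD2 was on the lists of the glycerol routes described above.

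Long noncoding RNAs within 50 kb were listed beside GPD1, GPD1L, GPD2, PCK1 and PCK2. One that overlaps its neighbour is LOC102163508, which runs opposite to GPD1 and shares 352 bases with its start. It was at 0.248, 0.916, 1.99 and 5.40 FPKM and, unlike GPD1, was higher at D8 than at D4. Since strand use in the counting is not stated, reads from the shared bases could count for either. The one that reached 1 FPKM in 3 libraries was MSTRG.73451, 48131 bases from PCK2, at 1.41, 0.970, 3.86 and 1.48 FPKM. Beside PCK1, LOC110257401 lies 117 bases before the gene on the opposite strand and was at 0 in 3 libraries and 0.0115 FPKM at D4. Among protein-coding neighbours, NOL6, on the same strand as AQP3 and 10172 bases from it, was at 3.99, 6.48, 9.26 and 4.12 FPKM, highest at D4 as AQP3 was. SMARCD1, 2400 bases before GPD1, was at 0.896, 0.897, 1.35 and 0.332 FPKM and was lowest at D8, where GPD1 was highest. Of the neighbours of PCK2, PSME1, a proteasome activator subunit, was at 28.5, 54.6, 88.3 and 36.9 FPKM, highest at D4, where PCK2 was lowest.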

How the data were processed

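For each stage, RNA of 3 piglets was pooled by the authors, depleted of rRNA and sequenced as 1 directional library. The authors aligned cleaned reads to the pig assembly Sscrofa11.1 with HISAT2 2.0.5 and deposited FPKM per gene. The deposited column also holds the circRNA values, junction reads found with BWA and CIRI (at least 2 reads) and scaled by mapped reads. The counting tool and its use of strand are not given in the sources used here.

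Library totals (54128151 to 75387428) were computed from the lowest FPKM values of tRNA and miRNA genes, and reads of a gene from the smallest whole-base length that turns its 4 FPKM values into whole reads. Such a length was found for 16184 of the 16192 mRNAs. The reads of AQP3, GK, GPD1L, PCK1 and PCK2 equalled counts in the lists of the study, those of GPD1 equalled them after the smallest length was multiplied by 2 (the reads given here are these), and AQP1, AQP7 and GPD2 were not in those lists. The true reads of these 3 may be whole multiples of those given, with narrower intervals. Where a symbol had 2 rows (LDHB), the longer gene was kept. All 9 genes matched the RefSeq table by symbol, start and end.

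Genes were called at a ratio of at least 2 on log2(FPKM + 0.01) among mRNAs that reached 1 FPKM in 3 or 4 of the libraries, the study's filter and ratio without its test. Ratios carry exact conditional binomial 95% intervals. No test between stages was possible. The 9 genes and all lists were chosen with earlier results of these data known. Named were the 9 genes, list genes that passed the ratio or stand beside one of them, and the 2 nearest of the 3 most similar genes searched. All reliably expressed genes of the list of PCK1 and PCK2 regulators were named. Genes beside the 9 in the genome, and list genes at 0 or below the filter, were named after their values were seen. The alternatives were other pseudocounts, filters, scalings and a ratio of 1.5. Scripts were tested on simulated data. Python 3.11.15, pandas 2.3.3, NumPy 2.4.6, SciPy 1.17.1 and matplotlib 3.10.9 were used. No sequence was used here.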

Additional observations from a re-analysis of the deposited data

How the results depend on the processing

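No paired analysis was possible because each stage had 1 pooled library, and for the same reason no replicate could be left out. Of 180 log2 ratios of the 9 genes recomputed under other pseudocounts and scalings, 3 near 0 changed sign. These were AQP1 in D8 vs D0, GPD1 in D8 vs D4 and GPD1L in D4 vs D0, each 0.0474 or less in size. A pseudocount cannot change the sign of a ratio, and the scalings moved a log2 ratio by at most 0.21. The 108 ratios that were at least 2-fold could therefore not change sign under these settings. Of 80 recomputed counts of higher or lower genes, 70 stayed within 1.5 times. With FPKM of at least 1 required in all 4 libraries, AQP3 and GPD1 drop out. The number higher was then 2 in place of 4 in D2 vs D0 and 0 in place of 2 in D4 vs D2. It was 2 in place of 4 in D4 vs D0 and 1 in place of 3 in D8 vs D0. Of all mRNAs that passed this filter, 5.2%, 2.73%, 8.88% and 2.43% were higher in these comparisons. With no filter, AQP1 joins the lower genes, which then numbered 2 in D2 vs D0, 1 in D4 vs D2 and 2 in D4 vs D0, and AQP7 or AQP1 joins the higher genes in every comparison, which moved those counts by 1. With a ratio of 1.5, 2 were lower in D2 vs D0 (GPD1L joins), beside 20.1% of all reliably expressed mRNAs. At that ratio, 4 were higher in D4 vs D2, beside 11.7%, and 4 were lower in D8 vs D4, beside 25.9%. Median-ratio scaling raised every log2 ratio by 0.21 in D8 vs D4 and by 0.16 in D8 vs D0. In D8 vs D0, GK then passed 2-fold and 4 genes were higher in place of 3, beside 4.41% of all. Equal mRNA sums raised the log2 ratios by 0.11 in D2 vs D0. A pseudocount of 1 moved a log2 ratio by up to 1.87, AQP1 and AQP7 aside. Depth limits AQP7 at D0 and D2 and AQP1 at D2 and D4, each with under 20 reads.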
